A study of Homo sapiens with 6 samples.

Results

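The RAS-RAF-MEK-ERK cascade was followed here through 33 genes in MM.1S, a line of human myeloma cells, a cancer of plasma cells. The genes were taken by symbol and grouped by role as adaptors, exchange factors, GTPase-activating proteins (GAPs), RAS proteins, RAF kinases and their regulators, MEK, ERK, a RAS effector and the kinases that ERK activates. Each of the 33 symbols was found among the 56637 in the count tables, and 30 had enough reads to be tested. All cells were MM.1S transduced by lentivirus and selected with puromycin. The 3 control libraries (shLuc) carried a short hairpin RNA to luciferase, and the 3 knockdown libraries (shKDM6B) carried a hairpin to KDM6B, which encodes a demethylase of histone H3 lysine 27. The labels name no further KDM6B hairpin and no rescue, so loss of KDM6B and other effects of that hairpin cannot be told apart.

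In this cascade, activated receptors recruit adaptors such as GRB2 and SHC1, which bring exchange factors to the membrane. Exchange factors load RAS with GTP, and GAPs return it to the inactive GDP form. RAS bound to GTP recruits RAF kinases, which phosphorylate MEK, and MEK phosphorylates ERK. ERK in turn activates the RSK and MNK kinases. RAS mutations and cytokine signals are well known to feed this pathway in multiple myeloma. Much of its control acts on the proteins, and RNA levels do not measure kinase activity.

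Library totals ran from 7338393 to 8996159 counts in shLuc and from 7952156 to 9848351 in shKDM6B. KDM6B, the target, went from 53.8 ± 4.9 to 32.6 ± 2.4 CPM (counts-per-million; SD, n = 3 each), 61.1% of the control. All CPM values are scaled by the TMM method, which corrects for differences in library composition. The 7 plasma cell markers examined (SDC1, CD38, TNFRSF17, PRDM1, XBP1, IRF4 and MZB1) were all detected. They summed to between 2187 and 2385 CPM in shLuc and between 2100 and 2363 CPM in shKDM6B. Within that sum CD38 and TNFRSF17 were lower in shKDM6B (log2 fold change -0.45 and -0.37, adjusted p = 3.88e-07 and 2.20e-06), PRDM1 was higher (0.15, adjusted p = 0.0173), and the other 4 did not pass. The summed level of 10 epithelial markers (keratin genes, S100A2 and EPCAM) was uneven. It stood at 12.4, 2.94 and 3.31 CPM in shLuc replicates 1 to 3 and at 35.9, 45.8 and 2.02 CPM in shKDM6B replicates 1 to 3. KRT5, KRT14 and KRT19 passed as higher (log2 fold change 2.29, 2.93 and 2.43), with groups that overlapped. EPCAM went the other way, at 1.5, 1.4 and 2.2 CPM in shLuc and 0.9, 0.6 and 1.3 CPM in shKDM6B. It did not pass (log2 fold change -0.83, adjusted p = 0.0680). The remaining epithelial markers had too few counts to be tested. Monocyte, platelet and fibroblast markers each summed to at most 3.23 CPM in any library. The fibroblast sum was highest in the libraries richest in epithelial markers. It stood at 0.96, 0.45 and 0.22 CPM in shLuc replicates 1 to 3 and at 1.91, 3.23 and 0.40 CPM in shKDM6B replicates 1 to 3. The labels do not say whether replicates came from separate cultures, so the p-values rest on library-to-library spread, part of which may be technical.

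The clearest falls in the cascade were in RASGRP3, a RAS exchange factor, and HRAS, and the clearest rises were in the ERK-activated kinase genes RPS6KA2 and MKNK1 and the GAP gene RASA3. By edgeR's quasi-likelihood test with Benjamini-Hochberg adjustment over 13839 genes, 16 of the 30 tested members passed an adjusted p of 0.05 (53.3%), beside 39.1% of all tested genes. Of these, 9 were higher in shKDM6B (30% of the members, 20.1% of all tested genes) and 7 were lower (23.3%, beside 18.9% of all tested genes). A change of at least 1.2-fold was reached by 11 of the 16 (36.7% of the tested members, beside 23.8% of all tested genes). The groups did not overlap for 14 of 30 members (46.7%), close to the 48.4% of all tested genes. The median log2 fold change was 0.046 for the members and -0.0053 for all tested genes, and the median size regardless of sign was 0.14 and 0.16. The members were better covered than most genes, with a median of 111.8 CPM beside 42.2 CPM for all tested genes. Its part in the share of members that passed was not tested. These are bulk libraries, in which fewer cells with a transcript and less of it per cell cannot be told apart.

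DESeq2's Wald test passed 9 members, beside 22.6% of all genes it tested. TMM factors taken from sparsely covered genes alone (under 0.03 counts per base of exon) passed 12 members, beside 35.9% of all genes. That scaling put 64.0% of all passing genes on the higher side, beside 51.5% with TMM. The 9 members that passed under every alternative test, scaling, filter and left-out library were RASGRP3, HRAS and GAB2 (lower) and RPS6KA2, MKNK1, RASA3, RPS6KA3, SHOC2 and RASA2 (higher). Without shLuc replicate 3, the number of lower members went from 7 to 4. Without the 3 libraries with most epithelial marker counts (shLuc replicate 1, shKDM6B replicates 1 and 2), 12 members passed, beside 26.5% of all genes. That setting keeps 2 shLuc libraries and 1 shKDM6B library, so the lone library is assumed to vary like the shLuc libraries, and a call lost there does not show a smaller difference.

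**Figure D1:**
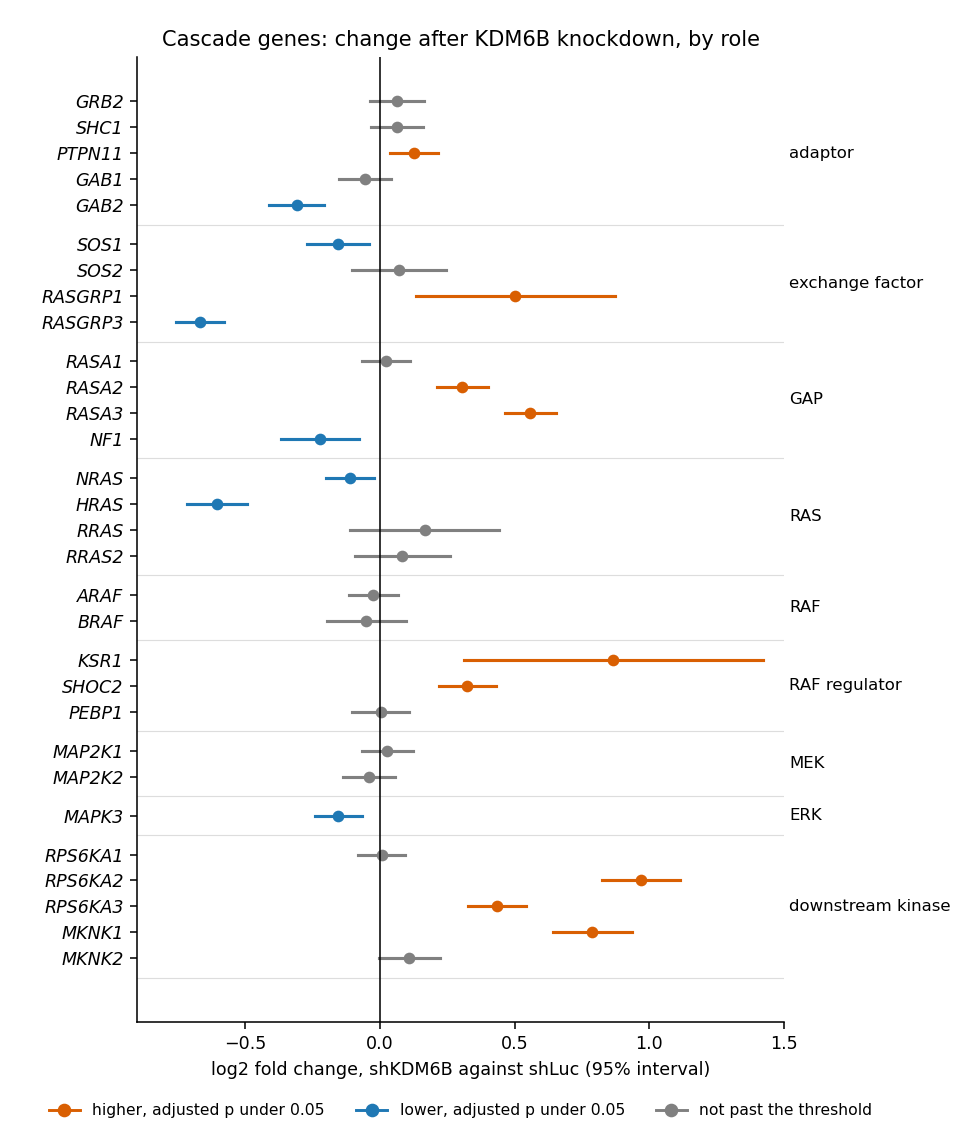
Log2 fold change in shKDM6B against shLuc for the 30 tested members (points) with 95% intervals from the quasi-likelihood fit (bars), grouped by role, in orange (higher) or blue (lower) where the adjusted p is under 0.05 and in grey otherwise. RASGRP3 (-0.67) and HRAS (-0.60) lie farthest to the left and RPS6KA2 (0.97), KSR1 (0.87) and MKNK1 (0.79) farthest to the right, while the RAF and MEK genes sit around 0.

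Sequence upstream of the start site is shown for the members with the largest falls and rises that passed under every alternative: HRAS and RASGRP3 (lower), RPS6KA2 and MKNK1 (higher). RefSeq promoter windows of 300 bases (GRCh38.p14) were matched for 29 of the 33 members, and each line gives the 150 bases before the RefSeq start, 5′ to 3′ on the gene's strand. HRAS lies on the minus strand at chr11:535577-535726, RASGRP3 on the plus strand at chr2:33436198-33436347, RPS6KA2 on the minus strand at chr6:166862526-166862675 and MKNK1 on the minus strand at chr1:46604269-46604418. Capitals mark letters of any of the 5 motifs searched, read on either strand.
HRAS: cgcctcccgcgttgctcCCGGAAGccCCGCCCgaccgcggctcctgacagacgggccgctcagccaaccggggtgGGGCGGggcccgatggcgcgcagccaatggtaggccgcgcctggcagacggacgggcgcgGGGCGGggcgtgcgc
RASGRP3: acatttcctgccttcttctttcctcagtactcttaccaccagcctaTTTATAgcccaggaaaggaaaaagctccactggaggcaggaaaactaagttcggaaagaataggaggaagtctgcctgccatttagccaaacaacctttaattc
RPS6KA2: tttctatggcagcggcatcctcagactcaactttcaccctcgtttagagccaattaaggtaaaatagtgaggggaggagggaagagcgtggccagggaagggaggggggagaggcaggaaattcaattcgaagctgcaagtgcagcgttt
MKNK1: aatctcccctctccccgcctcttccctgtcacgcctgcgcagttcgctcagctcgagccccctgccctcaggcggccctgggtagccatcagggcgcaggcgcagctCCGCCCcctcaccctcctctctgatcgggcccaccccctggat

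The motifs were the ETS core CCGGAAG (the family of ELK1, a factor that ERK phosphorylates), the AP-1 site TGANTCA, the cyclic AMP response element TGACGTCA, the GC box GGGCGG and the TATA box TATAAA. No motif contains another, although neighbouring matches can share bases. The ETS letters were found in 5 of the 29 member windows (17.2%), HRAS, NRAS, NF1, SHC1 and RASGRP2, and in 10.7% of 27305 RefSeq windows. HRAS holds them at -133 to -127 from its start. GC boxes were in 22 of 29 windows (75.9%) against 44.6% of all windows, AP-1 letters in 0 (7.76% of all), the cyclic AMP element in 1 (NF1; 1.98% of all) and the TATA box in 2 (MKNK2 and RASGRP3; 12.0% of all). The printed HRAS stretch is dense in G and C and carries 3 GC boxes, and MKNK1 carries 1. RASGRP3 has TATA letters on the minus strand at -104 to -99 and, at 39.7% G and C over its window, the lowest content of the 29, whose median was 68.0% (58.3% for all windows). RPS6KA2 holds no capitals in its printed stretch, and its single GC box lies farther upstream at -193 to -188. These matches describe letters in a single window for each member and do not show binding. The 27305 windows were not limited to the 13839 genes tested here, and a background matched to the members was not tested.

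Adaptors connect receptors to RAS, and their genes moved little apart from GAB2. GAB2, a docking protein that recruits the phosphatase SHP2 and PI3 kinase, stood at 89.8, 87.8 and 89.1 CPM in shLuc replicates 1 to 3 and at 67.5, 73.1 and 74.2 CPM in shKDM6B replicates 1 to 3. All shKDM6B libraries were below all shLuc libraries (log2 fold change -0.31, adjusted p = 2.50e-05, SE 0.049). PTPN11, the gene of SHP2, which promotes RAS activation, had 140.6, 147.5 and 144.2 CPM in shLuc and 156.4, 161.9 and 154.6 CPM in shKDM6B. That small rise (log2 fold change 0.13, adjusted p = 0.0202, SE 0.042) separated the groups but was lost by DESeq2 (adjusted p = 0.103) and on leaving out shLuc replicate 1 (0.0778), shLuc replicate 3 (0.0584) or shKDM6B replicate 2 (0.126). With 2 shLuc libraries against 1 shKDM6B library, without those richest in epithelial markers, the PTPN11 log2 fold change was 0.086 (adjusted p = 0.321). GRB2, SHC1 and GAB1 did not pass, with log2 fold changes of 0.064, 0.065 and -0.054 and intervals that reached no further than -0.15 and 0.17. About 7.72% of the SHC1 exon length is shared with PYGO2 on the same strand, so their reads may not be separable.

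Exchange factors, which switch RAS on, held the largest fall among the 30 tested members. RASGRP3, a member of the RASGRP group activated by diacylglycerol, stood at 160.4, 158.1 and 157.9 CPM in shLuc replicates 1 to 3. It stood at 98.8, 97.6 and 103.5 CPM in shKDM6B replicates 1 to 3. The groups were far apart and each was tight, with a log2 fold change of -0.67 (adjusted p = 6.63e-11, SE 0.043), or 63.1% of the control. RASGRP1, the related factor best known from T cells, was rare, with 3.57, 4.86 and 5.29 CPM in shLuc and 6.11, 6.45 and 7.07 CPM in shKDM6B. It rose (log2 fold change 0.50, adjusted p = 0.0281, SE 0.18), but the call was lost by DESeq2 (adjusted p = 0.186). It was also lost on leaving out replicate 1 (0.126) or 2 (0.0511) of shLuc, or replicate 2 (0.0558) or 3 (0.0986) of shKDM6B. Without the libraries richest in epithelial markers, 2 against 1, the RASGRP1 log2 fold change was about as large at 0.48 (adjusted p = 0.152). The 4 T cell markers went the other way, summing to between 7.003 and 8.70 CPM in shLuc and between 4.66 and 5.96 CPM in shKDM6B, nearly all of it CD3E, while CD3G had 0 counts throughout and CD3D 1 count in a single library. Their part in the RASGRP1 result was not tested.

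RASGRP2 was close to absent, with raw counts of 0, 0 and 1 in shLuc and 3, 4 and 2 in shKDM6B, too few to be tested. A count of 0 allows a level of up to 0.354 CPM (3 counts at the average library size, counting error only). SOS1, which adaptors carry to the membrane, had 86.9, 77.7 and 89.3 CPM in shLuc and 77.4, 78.9 and 71.9 CPM in shKDM6B. The groups overlapped, and the fall was small (log2 fold change -0.16, adjusted p = 0.0289, SE 0.055). The SOS1 call ended with DESeq2 (adjusted p = 0.187), with scaling from sparsely covered genes (0.267), and on leaving out replicate 1 (0.0711) or 3 (0.132) of shLuc or replicate 3 of shKDM6B (0.160). SOS2 did not pass (log2 fold change 0.070, 95% interval -0.10 to 0.24).

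GAPs switch RAS off, and 2 of the 4 rose and 1 fell, beside 20.1% higher and 18.9% lower over all tested genes. RASA3, a GAP for RAS and RAP1, stood at 248.0, 243.9 and 239.8 CPM in shLuc replicates 1 to 3 and at 375.1, 357.7 and 344.8 CPM in shKDM6B replicates 1 to 3. Per length it was the most abundant of the 4 in every library, and it rose by 1.47-fold (log2 fold change 0.56, adjusted p = 2.20e-09, SE 0.046). RASA2 had 97.1, 97.5 and 106.6 CPM in shLuc and 124.7, 126.8 and 121.8 CPM in shKDM6B (log2 fold change 0.31, adjusted p = 1.50e-05, SE 0.046), again without overlap. NF1, the neurofibromin gene, had 55.2, 60.7 and 66.9 CPM in shLuc and 47.5, 57.4 and 52.4 CPM in shKDM6B. Its groups overlapped and it fell by 0.22 on the log2 scale (adjusted p = 0.0148, SE 0.070). The NF1 call ended with DESeq2 (adjusted p = 0.104), with scaling from sparsely covered genes (0.0513), and without shLuc replicate 3 or shKDM6B replicate 1 (0.0944 and 0.0866). RASA1 did not pass (log2 fold change 0.024, 95% interval -0.064 to 0.11), and 14.7% of its exon length is shared with CCNH on the opposite strand, which a kit that does not mark strand cannot separate. The 7 NF1 pseudogene rows had 0 counts in all libraries.

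Among the RAS genes, HRAS fell clearly and NRAS by a small amount. HRAS stood at 75.8, 79.6 and 77.8 CPM in shLuc replicates 1 to 3 and at 53.1, 47.9 and 52.6 CPM in shKDM6B replicates 1 to 3. It went to 65.8% of the control with no overlap (log2 fold change -0.60, adjusted p = 7.32e-09, SE 0.053). No other gene in the GENCODE 29 annotation shares exon bases with HRAS. NRAS had 167.1, 170.0 and 174.2 CPM in shLuc and 158.8, 163.0 and 152.4 CPM in shKDM6B, below in every library but at 92.6% of the control (log2 fold change -0.11, adjusted p = 0.0453, SE 0.043). The NRAS call ended in 9 of 16 alternatives, among them DESeq2 (adjusted p = 0.194), scaling from sparsely covered genes (0.651), limma-trend (0.0630) and no filter on low counts (0.0898). It also ended without any single library other than shLuc replicate 1, with adjusted p values from 0.0520 to 0.188.

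The RAS-related genes RRAS and RRAS2 did not pass, with log2 fold changes of 0.17 (95% interval -0.11 to 0.44) and 0.083 (95% interval -0.093 to 0.26). MRAS, whose product binds SHOC2, had 1 count in shLuc replicate 1 and 0 counts elsewhere. RIN1, an effector that competes with RAF for RAS, had raw counts of 3, 1 and 3 in shLuc and 0, 1 and 1 in shKDM6B and could not be tested. Per length, NRAS and HRAS stood far above the related RAS genes: in shLuc, 38.3 ± 0.8 and 41.9 ± 1.0 CPM per kilobase of exon against 9.69 ± 0.89 for RRAS and 6.29 ± 0.34 for RRAS2 (SD, n = 3 each). HRAS was above NRAS in every shLuc library, and RRAS above RRAS2. In shKDM6B, HRAS was at 27.6 ± 1.5 CPM per kilobase and NRAS at 35.5 ± 1.2 (SD, n = 3 each), with NRAS above HRAS in every library.

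**Figure D2:**
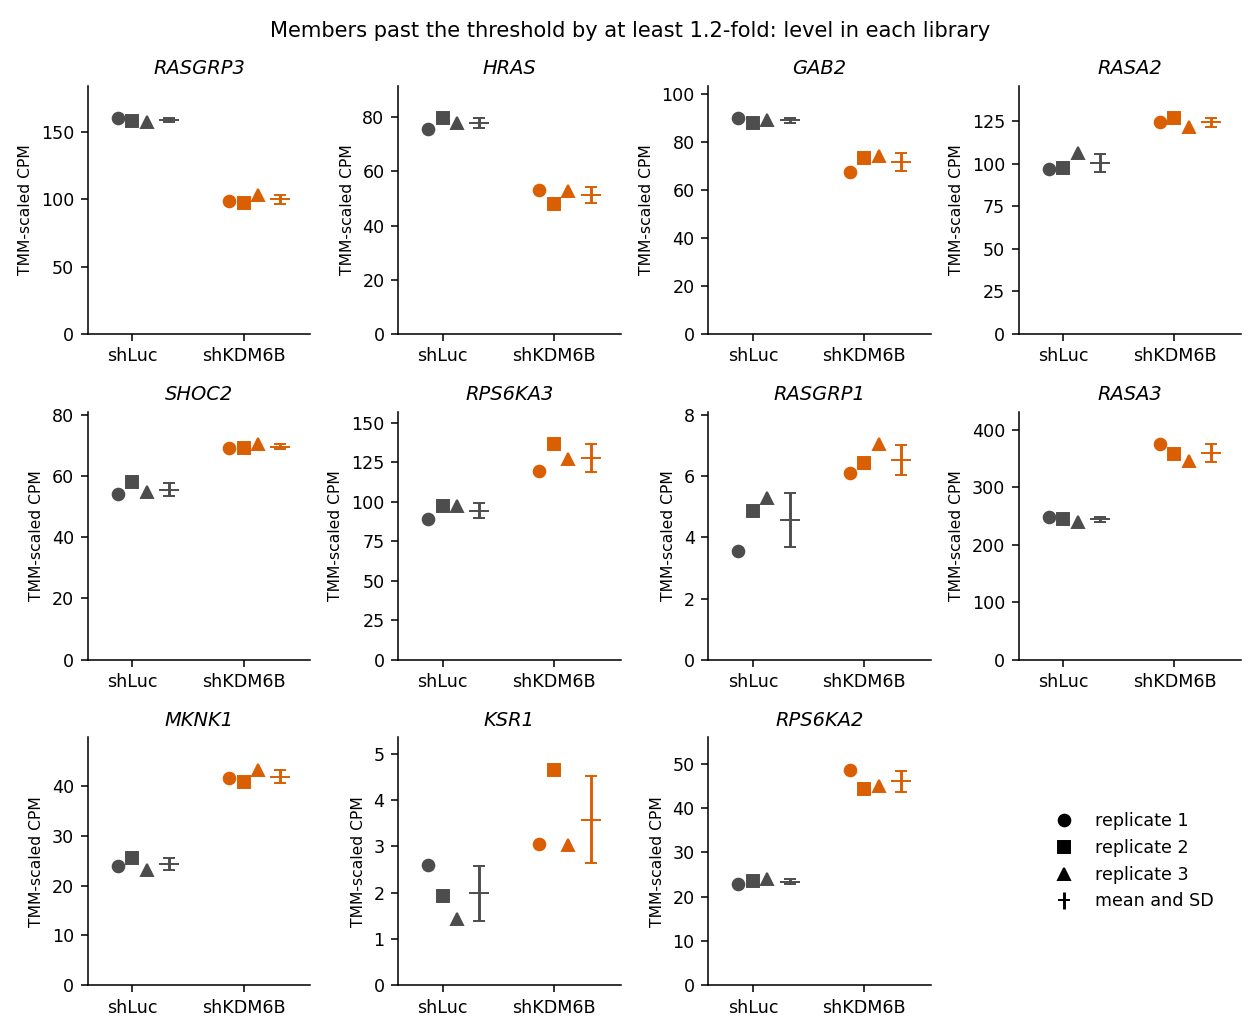
TMM-scaled CPM (vertical axes, from 0) in each of the 6 libraries for the 11 members past the threshold by at least 1.2-fold, in the order of their log2 fold change, with the mean and SD of each group beside the points. RASGRP3, HRAS and GAB2 are lower in every shKDM6B library, and the other 8 genes are higher in every shKDM6B library.

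The kinase core of the cascade showed no change past the threshold at RAF and MEK. ARAF stood at 145.2 ± 5.9 and 142.7 ± 2.5 CPM in shLuc and shKDM6B, and BRAF at 73.6 ± 9.2 and 71.5 ± 5.8 CPM (SD, n = 3 each). Their log2 fold changes were -0.024 (95% interval -0.12 to 0.067) and -0.049 (95% interval -0.20 to 0.096). MAP2K1 (MEK1) had 104.0 ± 2.8 and 106.1 ± 4.3 CPM and MAP2K2 (MEK2) 212.9 ± 11.9 and 207.0 ± 4.8 CPM (SD, n = 3 each). The intervals of these log2 fold changes, -0.067 to 0.12 for MAP2K1 and -0.13 to 0.057 for MAP2K2, bound a change in either direction. Part of the BRAF exon length (5.29%) is shared with NDUFB2 on the opposite strand. MAP2K1 shares 5.75% with SNAPC5 and 11.5% with the antisense gene AC116913.1, both on the opposite strand.

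MAPK3, the gene of the kinase ERK1, was slightly lower, with 119.9, 120.1 and 123.6 CPM in shLuc replicates 1 to 3 and 110.9, 107.4 and 108.9 CPM in shKDM6B replicates 1 to 3. The groups did not overlap (log2 fold change -0.15, adjusted p = 0.0062, SE 0.042). By DESeq2 the adjusted p was 0.0812, with scaling from sparsely covered genes it was 0.307, and in the 2 against 1 libraries left without those richest in epithelial markers 0.0592, where the MAPK3 log2 fold change was -0.16.

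RAF regulators were higher or did not pass. SHOC2, a scaffold that with a phosphatase removes an inhibitory phosphate from RAF, had 54.1, 57.9 and 54.8 CPM in shLuc and 69.1, 69.3 and 70.6 CPM in shKDM6B (log2 fold change 0.32, adjusted p = 2.56e-05, SE 0.051), with no overlap. KSR1, a scaffold that holds RAF, MEK and ERK together, was rare, with raw counts of 19, 17 and 13 in shLuc and 24, 39 and 30 in shKDM6B. Its level was 2.61, 1.92 and 1.43 CPM in shLuc and 3.06, 4.66 and 3.03 CPM in shKDM6B. KSR1 rose by a loosely determined amount (log2 fold change 0.87, 95% interval 0.31 to 1.42, adjusted p = 0.0128). The call ended with DESeq2 (adjusted p = 0.112) and without shLuc replicate 3 or shKDM6B replicate 2 (0.0781 and 0.104). In the 2 against 1 libraries left without those richest in epithelial markers, KSR1 kept a log2 fold change of 0.85 (adjusted p = 0.117). PEBP1, the RAF kinase inhibitor protein, stood at 128.4 ± 9.0 and 128.5 ± 5.7 CPM (SD, n = 3 each), with a 95% interval of the log2 fold change from -0.10 to 0.11.

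Among the kinases that ERK activates, 3 of 5 rose, beside 20.1% of all tested genes. The largest fold of the 30 tested members was in RPS6KA2. RPS6KA2, which encodes the RSK family kinase RSK3, stood at 22.8, 23.5 and 23.9 CPM in shLuc replicates 1 to 3 and at 48.6, 44.3 and 45.0 CPM in shKDM6B replicates 1 to 3. Its level rose 1.96-fold (95% interval 1.77 to 2.17; log2 fold change 0.97, adjusted p = 3.18e-10, SE 0.070). RPS6KA3, the gene of RSK2, had 89.1, 97.1 and 97.1 CPM in shLuc and 119.4, 136.7 and 127.3 CPM in shKDM6B (log2 fold change 0.43, adjusted p = 6.24e-07, SE 0.052). Neither gene's groups overlapped. RPS6KA1, the gene of RSK1, did not pass, at 189.6 ± 5.7 and 190.5 ± 4.1 CPM (SD, n = 3 each) and a 95% interval of -0.081 to 0.095 on the log2 scale.

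MKNK1 encodes a MNK kinase, which phosphorylates the translation factor eIF4E. It had 24.0, 25.6 and 23.3 CPM in shLuc replicates 1 to 3 and 41.6, 40.9 and 43.3 CPM in shKDM6B replicates 1 to 3. Every shKDM6B library was above every shLuc library, by 1.73-fold (log2 fold change 0.79, adjusted p = 8.68e-09, SE 0.070). The antisense gene MKNK1-AS1, which covers 2.42% of the MKNK1 exon length, averaged 3.33 counts per library. MOB3C shares 1.65% of that length on the same strand and averaged 217.3 counts per library, so reads from the shared bases cannot be told apart. Per length MKNK2 was by far the more abundant MNK gene (90.6 CPM per kilobase against 3.01 for MKNK1 in shLuc), with 505.5, 468.1 and 445.5 CPM in shLuc and 538.4, 518.4 and 474.4 CPM in shKDM6B. Its groups overlapped and it did not pass (log2 fold change 0.11, adjusted p = 0.122, SE 0.055). MKNK2 passed without shLuc replicate 1 (adjusted p = 0.0231), without shKDM6B replicate 3 (0.0203) and with no filter on low counts (0.0454).

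Per length of exon, the makeup of several families shifted, as the plot of family shares shows. The RASGRP factors were almost wholly RASGRP3 in both groups, 94.98 ± 1.01% of the summed CPM per kilobase in shLuc and 88.8 ± 0.4% in shKDM6B, while RASGRP1 went from 4.99 ± 0.96% to 10.6 ± 0.5% (SD, n = 3 each). Their sum went from 15.0 ± 0.04 to 10.1 ± 0.3 CPM per kilobase (SD, n = 3 each). Among the 4 GAP genes, RASA3 made up 54.0 ± 1.2% in shLuc and 61.3 ± 1.2% in shKDM6B, and the sum went from 94.8 ± 0.6 to 123.1 ± 3.3 CPM per kilobase (SD, n = 3 each). HRAS went from 43.6 ± 0.1% to 34.2 ± 2.4% of the 5 RAS genes, whose sum went from 96.2 ± 2.4 to 80.8 ± 1.6 CPM per kilobase (SD, n = 3 each). RPS6KA2 was the least abundant RSK gene of the 3 in both groups and went from 6.37 ± 0.22% to 10.97 ± 0.52% (SD, n = 3 each). RAF was 92.9 ± 1.1% ARAF in shLuc and 93.0 ± 0.5% in shKDM6B (SD, n = 3 each), and MEK 59.5 ± 1.0% and 58.4 ± 0.8% MAP2K2. These shares are descriptions with no test. They use the merged exon length of all annotated GENCODE 29 transcripts, which understates genes with long annotated ends such as BRAF (23432 bases).

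**Figure D3:**
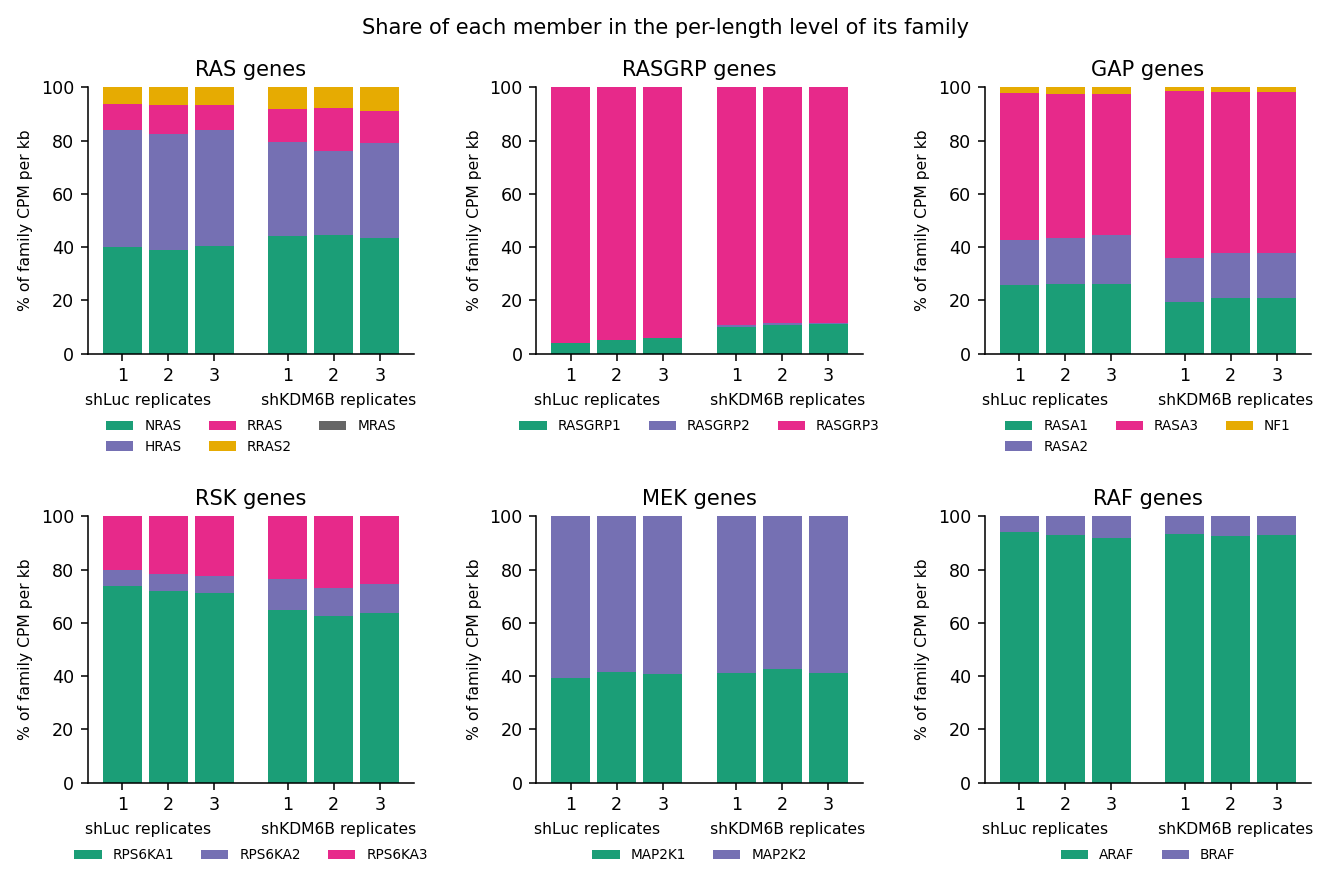
Share of each member (percent, vertical axis) in the summed CPM per kilobase of exon of its family, for the 6 libraries. HRAS takes a smaller and RPS6KA2, RASGRP1 and RASA3 a larger share in each shKDM6B library than in any shLuc library, while the RAF and MEK bars look alike across libraries.

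Part of the spread within groups followed library size. Library totals rose with the replicate number in both groups, so size and replicate order cannot be told apart. For 7 of the 30 tested members (23.3%, beside 8.3% of all tested genes), CPM was lower the larger the library total, in both groups: GRB2, SHC1, RASA3, PEBP1, MAP2K2, RPS6KA1 and MKNK2. These genes were dense in reads, from 0.235 counts per base of exon (GRB2) to 0.802 (MKNK2), against a median of 0.141 for the members. GAB1 and RASGRP1 did the reverse in both groups (6.67% of the members, near the 5.2% of all tested genes). The shallowest library was shLuc replicate 1 and the deepest shKDM6B replicate 3. The part of this in the calls was not tested. RASA3, the one gene of the 7 that passed, had group ranges far apart, 239.8 to 248.0 CPM in shLuc and 344.8 to 375.1 CPM in shKDM6B.

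**Figure D4:**
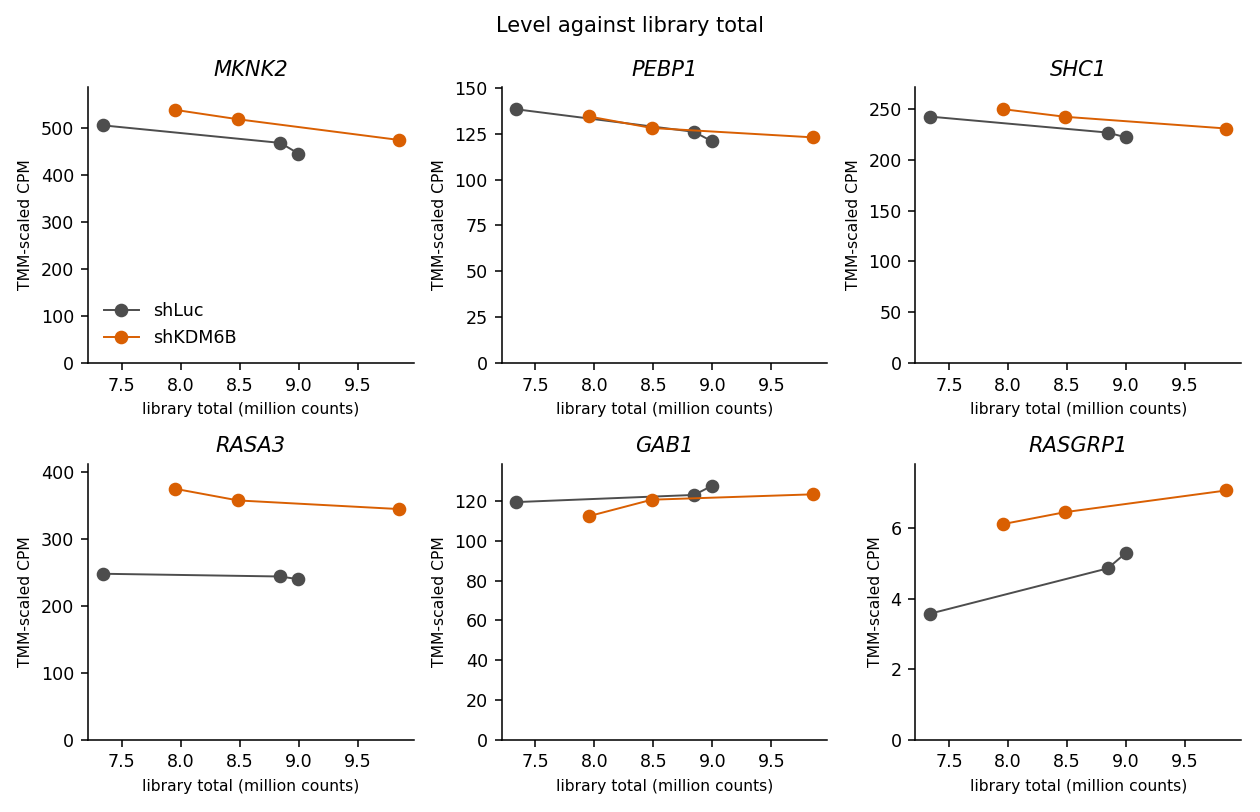
TMM-scaled CPM (vertical axis, from 0) against the total count of the library for 6 members, with the 3 libraries of a group joined by a line. MKNK2, PEBP1, SHC1 and RASA3 slope down and GAB1 and RASGRP1 up in both groups, and for RASA3 the shKDM6B line lies above the shLuc line throughout.

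Other genes of the pathway were read from a list of 57, of which 45 were tested. The test passed 25, with 14 higher (31.1%, beside 20.1% of all tested genes) and 11 lower (24.4%, beside 18.9%). By DESeq2, which passed 22.6% of all genes, 11 were higher and 10 lower. Of 10 tested adaptors of this list, 5 were lower, 1 was higher and 4 did not pass, beside 18.9% lower and 20.1% higher over all tested genes. IRS2, a docking protein of the insulin and IGF1 receptors, went from 136.8 ± 3.8 to 86.4 ± 4.7 CPM (mean ± SD of 3 libraries; log2 fold change -0.67, adjusted p = 2.45e-10, SE 0.047), and its relative IRS1 stood at -0.37 on the log2 scale (adjusted p = 3.76e-07, SE 0.042). Of 8 tested genes of RAS processing and turnover, 4 were higher, 0 lower and 4 did not pass, beside 20.1% higher and 18.9% lower over all tested genes. ZDHHC9 and GOLGA7, whose products form the enzyme that attaches palmitate to HRAS and NRAS, had log2 fold changes of 0.62 (adjusted p = 2.17e-09, SE 0.050) and 0.31 (adjusted p = 3.41e-05, SE 0.049).

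Among other RAS effectors, 5 of 10 tested were higher and 2 lower (20.1% and 18.9% over all tested genes), with RGL1 and RALGDS, exchange factors for RAL, at log2 fold changes of 0.45 and 0.31 (adjusted p = 3.17e-08 and 4.59e-06). Of 5 other GAPs tested, 2 were higher, 1 was lower and 2 did not pass, beside 20.1% higher and 18.9% lower over all tested genes. The lower gene was RASAL2, with a log2 fold change of -0.60 (adjusted p = 4.73e-05). RAF regulators outside the 33 members included the scaffold genes CNKSR1 (log2 fold change -0.41, adjusted p = 6.30e-06) and CNKSR2 (0.60, adjusted p = 1.41e-05). In all, 1 of 8 tested was higher and 2 lower, beside 20.1% and 18.9% over all tested genes. RPS6KA4, the gene of the ERK- and p38-activated kinase MSK2, rose from 88.3 ± 2.9 to 131.5 ± 4.5 CPM (mean ± SD of 3 libraries; log2 fold change 0.58, adjusted p = 1.33e-09, SE 0.046), while RPS6KA6, the gene of RSK4, was lower (-0.67, adjusted p = 3.98e-04, SE 0.13) and RPS6KA5 did not pass. The remaining exchange factors RASGRF1, RASGRF2 and RASGRP4 had too few counts to be tested, and PEA15, which binds ERK, did not pass.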

How the data were processed

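RNA-seq libraries of MM.1S cells, 3 shLuc and 3 shKDM6B, were grouped by their titles. The authors deposited raw counts per gene symbol, and a table of normalized values. Per the submitters' processing notes, STAR, featureCounts, DESeq and GRCh37 (hg19) were used. Software versions, annotation, strand setting and duplicate handling were not given in the sources used here. Deposited normalized values, a signal, equalled the counts divided by 1 factor per library (relative deviation at most 5.03e-10). In each count table a single line with a date-like name was left out.

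Counts were tested with edgeR 4.0.16 (R 4.3.3): filterByExpr, TMM scaling, quasi-likelihood test with group as the single term and Benjamini-Hochberg adjustment over 13839 genes, with a threshold of 0.05. SEs and 95% intervals come from the quasi-likelihood statistic. The fit was tested on simulated data. Exon lengths (GENCODE 29, GRCh38) were matched by symbol for 12065 tested genes. Alternatives were DESeq2 1.42.0 size factors and Wald test, upper-quartile scaling, TMM from 3223 genes under 0.03 counts per base, other low-count filters, a replicate block, left-out libraries, limma 3.58.1 (voom, and trend on log2 of normalized values plus 1) and a threshold of 0.01. The count tables give no coordinates.

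Values per library are given for members past the threshold and for members whose call changed under an alternative. Of the related list, at most 2 passing genes per role, those with the smallest p, are named. One gene that this rule names is not reported here. The members and lists were chosen with earlier results of these data known. Within groups, each library pair differed slightly beyond counting noise (chi-square per degree of freedom 1.08 to 1.23). That comparison used 2969 to 3115 genes per pair, with at least 20 counts in the pair. It does not show whether the libraries came from separate cultures. Each library was counted as 1 sample.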

Additional observations from a re-analysis of the deposited data

How the results depend on the processing

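Of the 16 members past the threshold, 9 kept their call and direction under all 16 alternatives to the fit: GAB2, RASGRP3, RASA2, RASA3, HRAS, SHOC2, RPS6KA2, RPS6KA3 and MKNK1. The other 7 (PTPN11, SOS1, RASGRP1, NF1, NRAS, KSR1 and MAPK3) lost the call in at least 1 alternative, and no passing member changed direction. DESeq2's Wald test passed 3394 genes, 1808 higher and 1586 lower, beside 5405, 2783 and 2622, and 9 members, 6 higher and 3 lower. The cause was not tested. At an adjusted p under 0.01, 10 members passed, 4 of them lower, by construction a stricter call. With scaling from sparsely covered genes, 3 members were lower and 9 higher, and the median gene moved by 0.056 on the log2 scale. Leaving out each library in turn passed 11 to 14 members, with 4 to 6 lower and 6 to 9 higher, and 4533 to 5030 genes. With the replicate number as a block, 6218 genes and 17 members passed, 10 higher and 7 lower. MKNK2 was the added call (adjusted p = 0.0047). Deviations of same-numbered libraries correlated at 0.12, -0.077 and 0.15. Replicates 1 and 3 correlated best with their own number and replicate 2 did not. The labels do not say whether the numbers pair the libraries, and the main fit treated the libraries as unpaired. Depth limits RASGRP2, MRAS and RIN1, which had too few counts to be tested, and KSR1 and RASGRP1, whose intervals are wide.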
